A study of Mus musculus with 12 samples.

Results

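The interferon response genes described here are 47 mouse genes that cells transcribe after type I or type II interferon. They were chosen by name from a list of well-known interferon-inducible genes, with earlier results of these data known. All 47 were found among the 25078 genes of the deposited tables. RNA was sequenced from LSK cells, the lineage-negative, Sca1-positive, c-Kit-positive bone marrow fraction that holds hematopoietic stem cells and multipotent progenitors. The groups were CM IR, CM NIR, WT IR and WT NIR, with 3 libraries each. CM cells came from Cbfb-MYH11 mice at a preleukemic stage, which carry the fusion found in human acute myeloid leukemia with inv(16), and WT cells came from mice given the genotype WT. The WT group is titled control, and its library names mark animals 1 and 3 with C and animal 2 with WT, a difference the labels do not explain. IR cells received 3.5 Gy after sorting and were harvested 24 h later, and NIR cells went through the incubation without irradiation. Each of 6 animals, 3 per genotype, gave 1 IR and 1 NIR library, so animals 1, 2 and 3 of a genotype are the same in IR and NIR. By library number, CM animals 1 and 2 and WT animal 1 form series A, and CM animal 3 and WT animals 2 and 3 series B. Both libraries of an animal are in the same series. WT animal 1 is alone in series A among WT animals, and CM animal 3 alone in series B among CM animals. For these animals a difference from the others of their genotype cannot be told apart from a difference between series. How the fusion was switched on, whether the WT mice were treated the same way, and the mice's strain, age and sex were not stated in the labels.

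Interferons bind receptors whose JAK kinases phosphorylate STAT proteins. A complex that holds STAT2 and IRF9 binds interferon-stimulated response elements in promoters, and type II interferon also acts through gamma-activated sites. The genes switched on sense foreign nucleic acid, block viruses and raise antigen presentation. In hematopoietic stem cells interferon is known to drive quiescent cells into division, and Sca1, a marker of the LSK gate, is itself induced by it.

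The promoters of 6 members are shown: 4 that varied widely between animals (Isg15, Ifit1, Ifit3 and Oas3), Gbp3, which separated CM from WT libraries within IR and within NIR, and Psmb8, which hardly varied. Each line is the 250 bases before the RefSeq transcription start (build GRCm38.p6, equal in coordinates to mm10). Capitals mark matches to GAAA, any 2 bases and GAAA, the core of an interferon-stimulated response element, or to its reverse complement, and matches may overlap.
Isg15, chr4:156200819-156201068, minus strand: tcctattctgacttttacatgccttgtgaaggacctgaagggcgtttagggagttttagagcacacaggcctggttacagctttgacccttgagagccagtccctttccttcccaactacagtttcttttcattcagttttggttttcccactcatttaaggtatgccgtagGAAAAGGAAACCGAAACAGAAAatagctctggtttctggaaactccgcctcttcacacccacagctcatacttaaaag
Ifit1, chr19:34640639-34640888, plus strand: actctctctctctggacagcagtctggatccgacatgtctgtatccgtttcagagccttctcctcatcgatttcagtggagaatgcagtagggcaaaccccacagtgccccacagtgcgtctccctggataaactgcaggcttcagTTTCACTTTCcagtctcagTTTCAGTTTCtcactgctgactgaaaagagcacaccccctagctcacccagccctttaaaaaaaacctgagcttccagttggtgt
Ifit3, chr19:34583279-34583528, plus strand: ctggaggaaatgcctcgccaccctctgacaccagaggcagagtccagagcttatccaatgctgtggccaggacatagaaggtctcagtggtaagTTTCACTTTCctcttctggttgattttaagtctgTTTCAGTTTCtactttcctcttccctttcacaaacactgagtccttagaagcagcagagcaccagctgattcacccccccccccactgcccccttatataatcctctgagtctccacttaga
Oas3, chr5:120777660-120777909, minus strand: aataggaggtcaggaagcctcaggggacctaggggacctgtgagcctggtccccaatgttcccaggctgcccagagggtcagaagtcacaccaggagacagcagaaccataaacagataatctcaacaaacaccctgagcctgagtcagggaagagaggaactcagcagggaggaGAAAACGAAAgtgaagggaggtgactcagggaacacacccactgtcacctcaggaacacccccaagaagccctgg
Gbp3, chr3:142559794-142560043, plus strand: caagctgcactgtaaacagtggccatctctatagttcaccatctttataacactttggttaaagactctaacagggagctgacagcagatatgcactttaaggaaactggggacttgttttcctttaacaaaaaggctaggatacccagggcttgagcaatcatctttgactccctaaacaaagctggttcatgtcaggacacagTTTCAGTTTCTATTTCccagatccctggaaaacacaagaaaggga
Psmb8, chr17:34197945-34198194, plus strand: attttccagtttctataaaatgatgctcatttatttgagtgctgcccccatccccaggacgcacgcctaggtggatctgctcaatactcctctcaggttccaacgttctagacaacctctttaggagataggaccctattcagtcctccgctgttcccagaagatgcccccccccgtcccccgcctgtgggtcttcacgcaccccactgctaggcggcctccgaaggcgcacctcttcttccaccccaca
Isg15 held 3 overlapping matches between 78 and 57 bases before its start (written here as -78 to -57). Ifit1 held 2, at -104 to -95 and -85 to -76, and Ifit3 held 2, at -156 to -147 and -122 to -113. Gbp3 held 2 overlapping matches from -45 to -30, and Oas3 held 1 at -75 to -66. Psmb8 held none in this window, and 1 match to TTCNNNGAA, the letters of a gamma-activated site, at -97 to -89. The table lists a second start for Gbp3, whose promoter held none. Of the 47 members 36 had a promoter in the RefSeq table, 4 of them with 2 starts of which either could hold a match, read from 250 bases before to 50 bases after the start on both strands. The core was found in 18 of the 36 (50%), against 3.99% of the promoters of 27025 genes. The core followed by CT was found in 11 (30.6%), against 0.303%, and TTCNNNGAA in 9 (25%), against 9.55%. By role, the core was present in 5 of 5 GTPase genes and 3 of 3 sensor genes, in 5 of 9 antiviral effectors, and in 0 of 4 antigen processing genes. The 6 promoters shown do not stand for all members. Irf7, Oasl1, Ifi44 and Oasl2 also varied widely (SD of log2 CPM within groups 2.26, 2.09, 1.95 and 1.69) and held no core. Igtp, Gbp7, Ifitm3 and Eif2ak2 varied less than these 4 (0.341, 0.371, 0.382 and 0.419) and held the core. Their SDs were still above the median of all genes tested (0.251). Whether the core goes with the spread was not tested.

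Gene counts summed to 68.5 to 111 M per library. Kit and Ly6a, which encodes Sca1, were detected in all 12 libraries. Cd3e and Ly6g, markers of T cells and mature neutrophils, stayed under 0.4 CPM (counts scaled to library size, with TMM factors). Other markers on the same lists were higher, with means of 33.1 CPM for Nkg7 in WT IR and 721 CPM for Mmp8 in CM NIR. Markers of other blood cells were also present, as given below by list. Kit stood at 210, 284 and 248 CPM in CM IR animals 1, 2 and 3 and at 176, 281 and 182 CPM in CM NIR. In WT cells Kit stood at 170, 247 and 200 CPM in IR and at 148, 252 and 239 CPM in NIR. Ly6a spread further, with 323, 49.7 and 144 CPM in CM IR and 306, 46.7 and 457 CPM in CM NIR. Its WT levels were 76.9, 66.7 and 44.7 CPM in IR and 140, 69 and 42 CPM in NIR. The RNA is from bulk samples, in which fewer cells of a type and less RNA per cell cannot be told apart.

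All 47 members passed the filter on low counts. Most of them stood high in some animals and low in others of the same group. Taken as the median over the members of log2 CPM minus the gene's mean over all libraries, CM IR animals 1, 2 and 3 stood at 0.998, -0.935 and -0.0924. CM NIR stood at 0.79, -0.951 and 0.531, WT IR at 0.222, -0.205 and -0.419, and WT NIR at 0.982, -0.392 and -0.618. CM animal 1 was high in IR and NIR, as were the NIR libraries of CM animal 3 and WT animal 1, and both libraries of CM animal 2 were low. Over all 14599 genes tested the same median stayed between -0.00897 and 0.036. WT NIR animal 1 was the highest library for 23 members and CM IR animal 1 for 19, and CM NIR animal 2 was the lowest for 24.

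**Figure D1:**
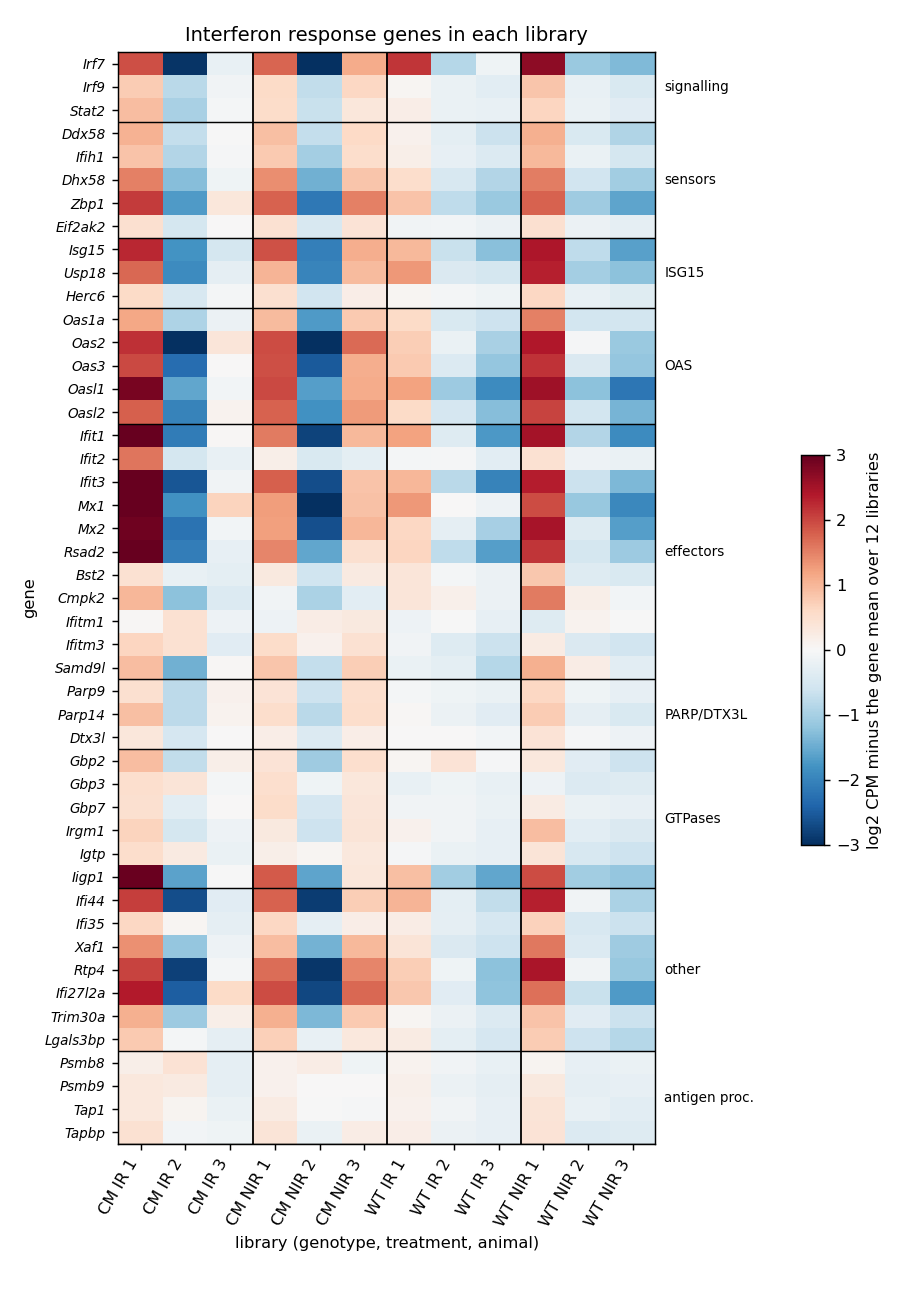
Level of each of the 47 interferon response genes (rows, ordered by role) in each of the 12 libraries (columns), as log2 CPM minus the mean of the gene over the 12 libraries. Values beyond the ends of the colour scale take the end colour. The columns of animal 1 are red in CM IR, CM NIR and WT NIR, those of CM animal 2 are blue, and the antigen processing rows at the bottom are pale throughout.

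The SD of log2 CPM among the 3 libraries of a group, pooled over the 4 groups, had a median of 0.781 over the members (0.233 to 2.41), against 0.251 over all genes tested. It was above 1 for 20 members (42.6%), against 6.22% of all genes. The members were chosen with earlier results known, so this contrast describes the list and does not test it. The highest library stood above the lowest by a factor of 4.38 for the median member, and by more than 10 for 17 members. The factor ran from 1.51 for Psmb9 to 135 for Mx1. Of the sum of squares of log2 CPM over the 12 libraries, a median of 88.2% lay between the 6 animals for the members (67.5% to 96.2%), against 84% for all genes. The 6 animals are of both genotypes and both library series, so this share also holds any difference between CM and WT or between series.

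The 3 signalling members split into 1 gene with a wide range and 2 with a narrower one. Irf7 encodes the transcription factor that amplifies type I interferon production, and it had the highest level of the 3 per length of transcript (mean 28.6 RPKM). Irf7 stood at 105, 3.52 and 23.3 CPM in CM IR animals 1, 2 and 3, and at 91.3, 3.26 and 59.2 CPM in CM NIR. In WT cells it stood at 121, 15.1 and 25.1 CPM in IR and at 177, 12.6 and 10.8 CPM in NIR. Animal 1 of each genotype was the highest of its group in both conditions, and the groups overlapped. Irf9 and Stat2, which encode parts of the complex that binds response elements, ranged by factors of 3.16 and 3.71 over the 12 libraries.

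Among the sensors, Eif2ak2, which encodes the RNA-activated kinase PKR that halts translation, had the highest level per length (29.8 RPKM) and the smallest range. It stood at 178, 88.6 and 128 CPM in CM IR and 174, 90.5 and 169 CPM in CM NIR, against 118, 119 and 112 CPM in WT IR and 176, 112 and 106 CPM in WT NIR. CM animal 2 was the lowest in both conditions. Ddx58 (RIG-I) and Ifih1 (MDA5), the cytosolic receptors for viral RNA, ranged by factors of 3.89 and 4.01. Dhx58, which encodes their relative LGP2, ranged by 7.97. Zbp1, the sensor of Z-form nucleic acid, ranged by 19.1, between 2.67 CPM in CM NIR animal 2 and 50.9 CPM in CM IR animal 1.

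Isg15 encodes a ubiquitin-like protein that is joined to other proteins, Usp18 the protease that removes it, and Herc6 the mouse ligase that attaches it. Isg15 stood at 26.2, 1.55 and 3.76 CPM in CM IR and at 20.5, 1.3 and 11.6 CPM in CM NIR. In WT cells it stood at 10.6, 3.39 and 2.26 CPM in IR and at 29.2, 3.17 and 1.73 CPM in NIR. Animal 1 was the highest in every group. Usp18 had the same highest and lowest library as Isg15 and ranged by a factor of 20.1, whereas Herc6 ranged by 2.28.

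The oligoadenylate synthetases make the messenger that activates RNase L, and as a group they had the widest spread, with a median SD of 1.88 on the log2 scale. Oasl2 had the highest level per length (18.9 RPKM), at 134, 9.61 and 41.8 CPM in CM IR and 132, 11.1 and 94.4 CPM in CM NIR. Its WT levels were 57.3, 27.1 and 15.9 CPM in IR and 159, 26.4 and 14.6 CPM in NIR. Oas2 was the most variable of the 5. It stood at 92.8, 2.29 and 26.1 CPM in CM IR and 78.9, 1.31 and 66.4 CPM in CM NIR, against 34, 17.6 and 10.4 CPM in WT IR and 108, 19.8 and 9.44 CPM in WT NIR. Oas1a, Oas3 and Oasl1 ranged by factors of 9.42, 26.3 and 32.7. Oas1a and its close paralogs such as Oas1g may share reads, so the split between them is uncertain.

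**Figure D2:**
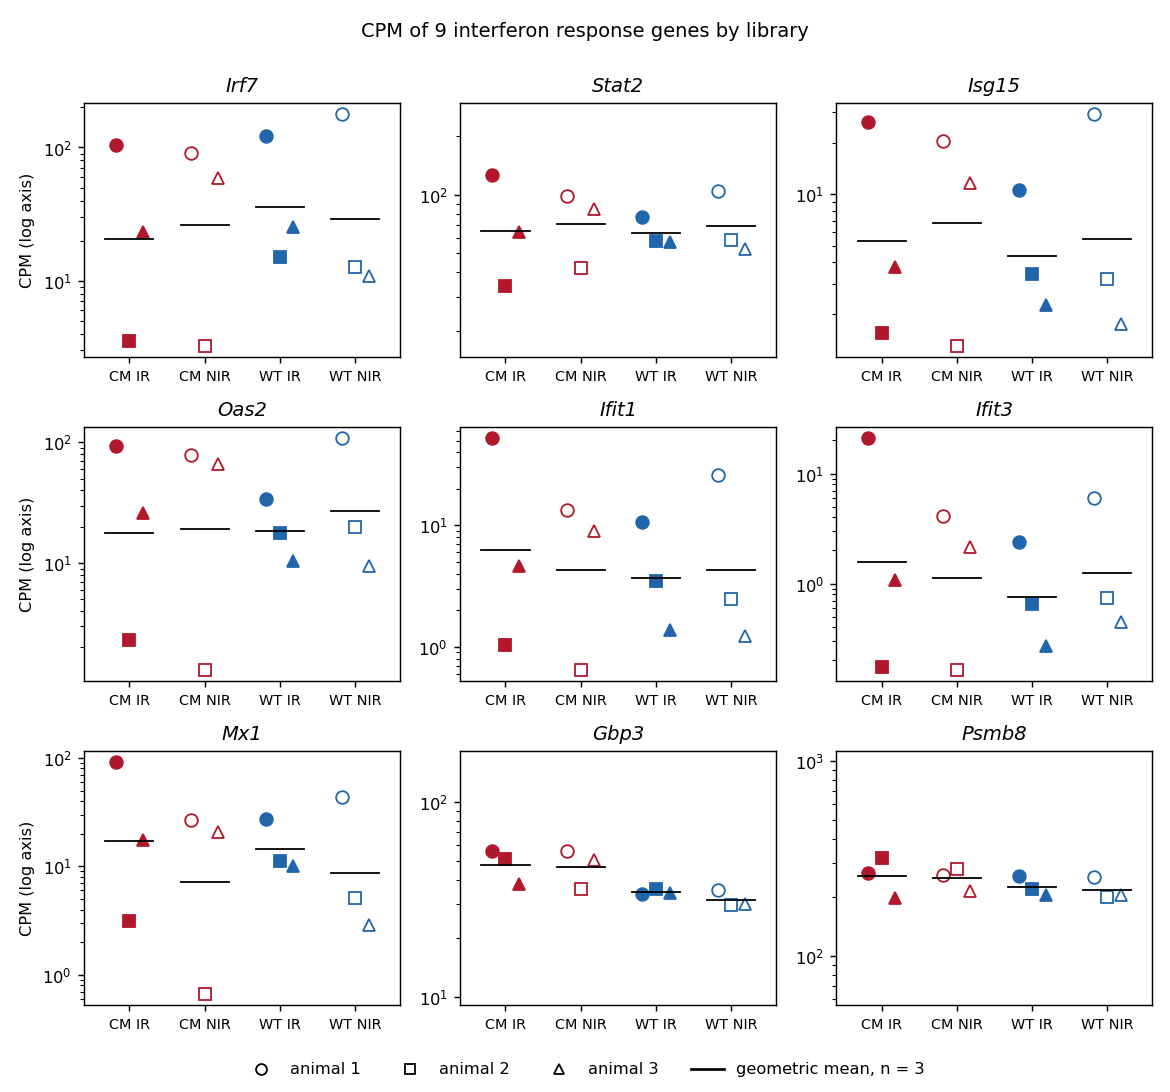
CPM (log axis) of 9 interferon response genes in each library of CM IR, CM NIR, WT IR and WT NIR. Symbols mark animals 1, 2 and 3 of a genotype and bars the geometric mean of 3 libraries. Animal 1 is highest in every group for Irf7, Isg15, Oas2, Ifit1, Ifit3 and Mx1. Gbp3 is the 1 gene plotted whose CM and WT points do not overlap within either condition, and Psmb8 spans 198 to 319 CPM.

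The 11 antiviral effectors held both the most abundant members and the most variable. Ifitm1 and Ifitm3 encode membrane proteins that block virus entry, at 1120 and 565 RPKM. Ifitm1 stood at 993, 1340 and 869 CPM in CM IR and 879, 1130 and 1190 CPM in CM NIR, against 873, 970 and 820 CPM in WT IR and 749, 1040 and 959 CPM in WT NIR. Its range was 1.79-fold, and animal 2 was the highest in CM IR, WT IR and WT NIR. Mx1 and Mx2 encode dynamin-like GTPases that trap viral components, and Ifit1 and Ifit3 encode proteins that bind viral RNA or assist in it. Mx1 (mm10 chromosome 16, 97447035 to 97462906, minus strand) stood at 91, 3.17 and 17.7 CPM in CM IR and 26.7, 0.673 and 20.7 CPM in CM NIR, against 27.5, 11.3 and 10 CPM in WT IR and 43.4, 5.11 and 2.89 CPM in WT NIR. Ifit3, whose promoter above holds 2 matches, stood at 20.9, 0.176 and 1.08 CPM in CM IR and 4.12, 0.165 and 2.13 CPM in CM NIR. Its WT levels were 2.37, 0.658 and 0.273 CPM in IR and 6.04, 0.738 and 0.448 CPM in NIR, and the lowest library held 13 counts. Ifit1 ranged by a factor of 80.4 and Mx2 by 51.4, both highest in CM IR animal 1 and lowest in CM NIR animal 2. Ifit3 and its copy Ifit3b may share reads.

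Rsad2 (viperin) and its chromosome 12 neighbour Cmpk2, a nucleotide kinase gene, are known to be induced together. Rsad2 stood at 86.3, 2.32 and 8.27 CPM in CM IR and 27.1, 3.3 and 13.6 CPM in CM NIR, against 15.3, 5.81 and 3.12 CPM in WT IR and 43.6, 6.83 and 4.62 CPM in WT NIR. Cmpk2 had a narrower range, with 36.9, 7.85 and 13.9 CPM in CM IR and 17.2, 9.54 and 14.8 CPM in CM NIR. Its WT levels were 23.6, 20.6 and 16.4 CPM in IR and 54.7, 20.9 and 17.5 CPM in NIR. In NIR cells the 3 WT animals were all above the 3 CM animals for Cmpk2. Bst2 (tetherin), which holds budding virus at the cell surface, ranged by a factor of 2.61.

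The PARP and DTX3L genes and the GTPases varied less than the roles above, with exceptions (median SD 0.513 and 0.47). Parp9 and Dtx3l encode an ADP-ribosyltransferase complex. Dtx3l, the more abundant per length at 26.1 RPKM, stood at 171, 95.4 and 136 CPM in CM IR and 154, 102 and 156 CPM in CM NIR, against 137, 136 and 128 CPM in WT IR and 179, 132 and 121 CPM in WT NIR. The 2 genes overlap by 558 bases on opposite strands, and without the strand setting of the counting their reads there cannot be assigned. Parp14 ranged by a factor of 3.27. Among the GTPases that act on pathogen vacuoles, Irgm1 had the highest level (31.5 RPKM) and stood at 111, 48.2 and 63.1 CPM in CM IR and 85.4, 45.2 and 90.7 CPM in CM NIR. Its WT levels were 75.9, 65.3 and 58.9 CPM in IR and 133, 56 and 51.2 CPM in NIR. Iigp1 ranged by 24.6, from 0.939 CPM in CM IR animal 2 to 23.1 CPM in CM IR animal 1, and Gbp2, Gbp7 and Igtp by 3.97, 2.07 and 2.22.

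Of the 7 other members, whose median SD was 1.19, Rtp4, Ifi44 and Ifi27l2a ranged by factors of 42.3, 37.4 and 35.8. Lgals3bp, which encodes a secreted glycoprotein, was the most abundant of them (116 RPKM). It stood at 188, 106 and 88.8 RPKM in CM IR and 177, 93.4 and 134 RPKM in CM NIR, against 130, 88.4 and 76.2 RPKM in WT IR and 183, 70.3 and 60.5 RPKM in WT NIR. Rtp4, a chaperone gene for receptors, stood at 46.5, 1.62 and 10.9 CPM in CM IR and 36.6, 1.47 and 31.3 CPM in CM NIR, against 19.1, 10.4 and 4.87 CPM in WT IR and 62.3, 10.6 and 5.14 CPM in WT NIR. Animal 1 was again the highest of each group. Ifi27l2a lies across Ifi27 on the opposite strand for 6057 bases, so its counts are uncertain. Xaf1, Trim30a and Ifi35 ranged by 8.02, 5.37 and 2.51.

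The 4 antigen processing members showed the smallest spread of the 9 roles, with a median SD of 0.262, close to that of all genes. Psmb8 and Psmb9 encode catalytic subunits of the immunoproteasome, Tap1 a subunit of the peptide transporter, and Tapbp tapasin, which loads peptide on MHC class I. Psmb8 was the most abundant (194 RPKM), at 268, 319 and 198 CPM in CM IR and 261, 279 and 216 CPM in CM NIR, against 257, 221 and 205 CPM in WT IR and 253, 200 and 206 CPM in WT NIR. CM animal 2, the lowest for most members, was the highest for Psmb8 in both conditions. The 4 genes ranged by factors of 1.51 to 1.83.

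**Figure D3:**
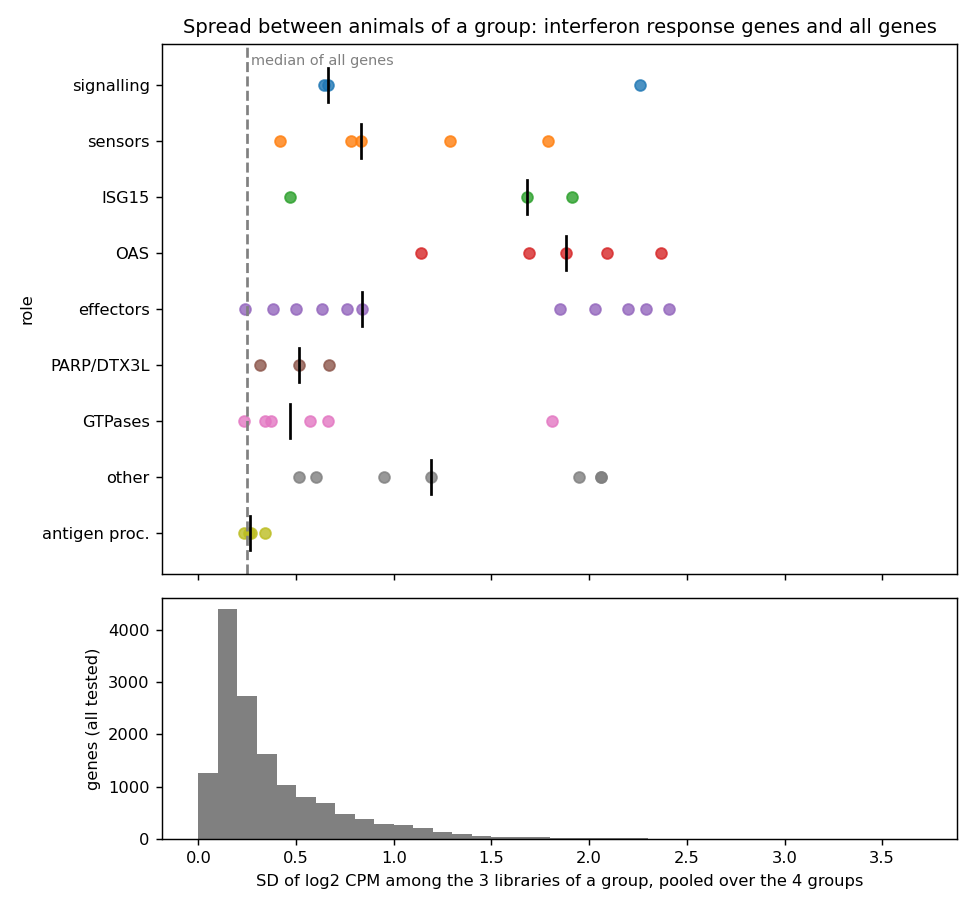
Upper panel, SD of log2 CPM among the 3 libraries of a group, pooled over the 4 groups, for each interferon response gene (points) by role, with the median of the role (black bar) and of all genes tested (dashed line, 0.251). Lower panel, the same SD for all 14599 genes. The antigen processing genes lie at 0.235 to 0.343, and all 5 OAS genes lie above 1.

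Whether irradiation of CM cells was followed by a different level of these genes was asked first. In CM IR against CM NIR 0 members passed an adjusted p of 0.05 in edgeR's quasi-likelihood test, against 0.00685% of all genes, and 0 had an unadjusted p under 0.05, against 1.62%. DESeq2 also called 0 members (0.123% of all genes), as did limma-voom (0.00685%) and the fit with the animal as a block (0%), each with 0 at an unadjusted p under 0.05. For 0 members did the CM IR and CM NIR libraries separate without overlap, against 1.57% of all genes with IR higher and 0.986% with IR lower. On the log2 scale the change was above 0 for 20 members and below 0 for 27, against 49.6% of all genes above 0. Its median was -0.0354, against -0.00123 over all genes. By role the fitted median was 0.784 for the antiviral effectors, -0.255 for the OAS family and -0.139 for the sensors, but within animals the medians of these 3 roles had the same sign: 1.44, 0.22 and 0.123 in CM animal 1, 0.245, 0.254 and 0.132 in CM animal 2, and -0.711, -1.17 and -0.59 in CM animal 3. The lowest p belonged to Ifit2, a relative of Ifit1, at 70.4, 16.1 and 19.7 CPM in CM IR and 26, 16.8 and 18.9 CPM in CM NIR. Only animal 1 was clearly higher after irradiation, and the log2 fold change of 0.78 ± 0.48 (SE, n = 3 per group) did not pass in edgeR's test (adjusted p = 1). Ifit3 had 1.78 ± 1.62, Mx1 1.22 ± 1.39, Rsad2 1.14 ± 1.29 and Cmpk2 0.50 ± 0.56. Leaving out both libraries of CM animal 1 gave -0.903 for Ifit3, -0.0671 for Mx1, -0.702 for Rsad2, -0.183 for Cmpk2 and -0.0118 for Ifit2. The median of the members was then -0.378, and without both libraries of CM animal 3 it was 0.231.

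In WT IR against WT NIR 0 members passed in edgeR's test, against 0.116% of all genes, and 0 had an unadjusted p under 0.05, against 4.05%. DESeq2 called 0 as well (0.959% of all genes), as did limma-voom (0.212%), both with 0 at an unadjusted p under 0.05. The fit with the animal as a block called 0 members (1.12% of all genes), with 1 at an unadjusted p under 0.05. No member separated WT IR from WT NIR libraries without overlap, against 7.47% of all genes with IR higher and 6.63% with IR lower. The log2 fold change was negative in 42 of the 47 and positive in 5, against 47.4% of all genes positive. Its median was -0.309, against -0.00885 over all genes. With the animal as a block the median was -0.137, and in limma-voom it was -0.132. The lowest p belonged to Samd9l (mm10 chromosome 6, 3372258 to 3399571, minus strand), which encodes an antiviral and growth-restraining protein and stood at 111, 104 and 70.8 CPM in WT IR and 265, 148 and 103 CPM in WT NIR. Every animal was lower after irradiation but the groups overlapped, and the log2 fold change was -0.85 ± 0.58 (edgeR adjusted p = 1). With the animal as a block it was -0.76 ± 0.21, with an unadjusted p of 0.00794 and an adjusted p of 0.174. Mx2, at 2.37, 1.28 and 0.766 CPM in WT IR and 8.69, 1.17 and 0.474 CPM in WT NIR, had -1.22 ± 1.37, and was lower in animal 1 alone. Rsad2 had -1.19 ± 1.30, Rtp4 -1.18 ± 1.31 and Cmpk2 -0.62 ± 0.56. With WT animal 1, the only WT animal of library series A, left out, the median of the members was 0.0955, and Mx2 had 0.313. With the library number series as a term the median was -0.241.

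Within animals the direction split the same way in each genotype: 1 animal was lower after irradiation and the other 2 were mostly higher. Some lists of blood cell markers split in the same way, as given below. In CM animal 1, 43 members were higher in the IR library than in the NIR library (median difference of log2 CPM 0.204), and in CM animal 2, 36 were higher (0.165). In CM animal 3, 46 were lower (-0.585). The deviations of its IR and NIR libraries from the group means correlated at 0.125 only, and its NIR library correlated at 0.686 with CM IR animal 1. In WT animal 1, 45 were lower (-0.796), while 36 were higher in WT animal 2 (0.0936) and 34 in WT animal 3 (0.141). Of all 14599 genes tested, 7001 (WT animal 1) to 7704 (CM animal 1) were higher in the IR library of an animal. The animals that were lower after irradiation were CM animal 3 and WT animal 1, whose NIR libraries had stood high, but that of CM animal 1 had stood higher than that of CM animal 3. The NIR level is part of the difference, so the 2 are not independent. No member was higher in all 3 animals of a genotype, against 11.4% of all genes in CM and 19.9% in WT. In CM 0 were lower in all 3, against 11.4% of all genes. In WT Ifit3, Rsad2, Rtp4, Cmpk2 and Samd9l were lower in all 3, or 5 of 47, against 22.3% of all genes.

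**Figure D4:**
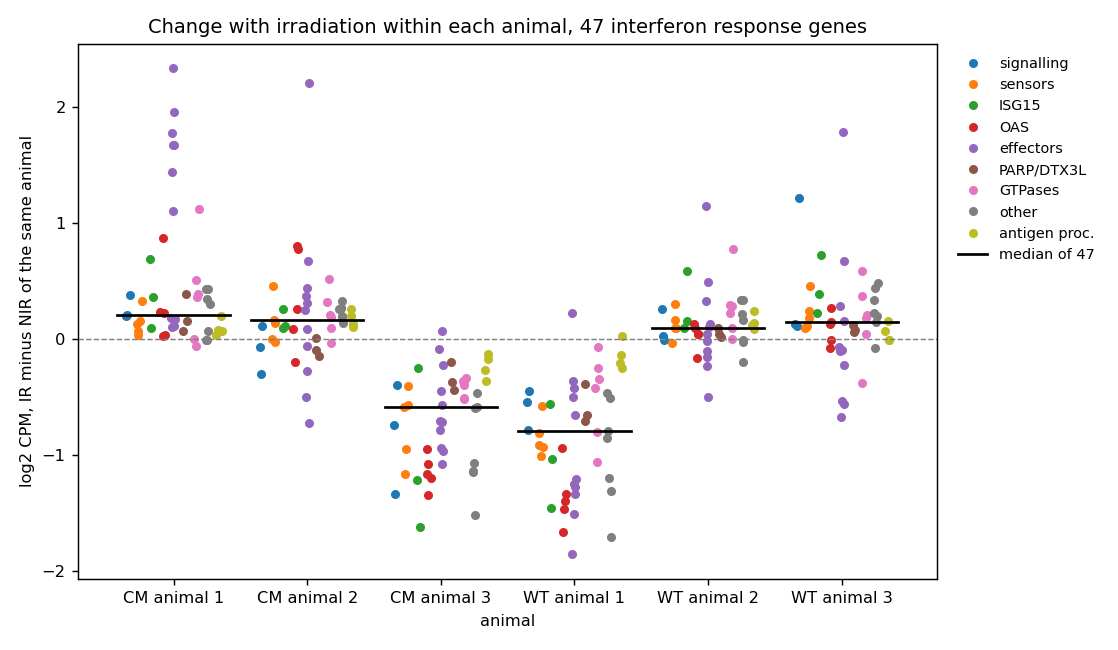
Difference of log2 CPM between the IR and the NIR library of each animal, 1 point per interferon response gene, coloured by role, with the median of the 47 genes (bar). The medians are 0.204, 0.165 and -0.585 in CM animals 1, 2 and 3 and -0.796, 0.0936 and 0.141 in WT animals 1, 2 and 3. The highest point is an antiviral effector in CM animals 1 and 2 and in WT animals 2 and 3.

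The size of these differences varied between members. In CM animal 1 the IR library exceeded the NIR library by 2.33 for Ifit3, 1.95 for Ifit1, 1.77 for Mx1, 1.67 for Mx2 and Rsad2 and 1.44 for Ifit2 on the log2 scale. Of the other effectors Cmpk2 differed by 1.1 there, and Ifitm1, Bst2, Ifitm3 and Samd9l by 0.104 to 0.176. The 5 OAS genes differed by 0.0223 to 0.866 in that animal, Oasl1 the most. Mx1 was the member with the largest difference in CM animal 2, WT animal 2 and WT animal 3, at 2.2, 1.14 and 1.78, and was lower in CM animal 3 (-0.226) and WT animal 1 (-0.659). Irf7 differed by 1.21 in WT animal 3, against 0.258 in WT animal 2 and -0.542 in WT animal 1. Samd9l was lower in 5 of the 6 animals, with 0.104 in CM animal 1 and -0.727 and -0.711 in CM animals 2 and 3. The antigen processing members stayed between -0.361 and 0.255 in every animal.

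Whether the response to irradiation differed between the genotypes was tested as an interaction, CM minus WT. No member passed in edgeR, DESeq2, limma-voom or the fit with the animal as a block, and each of the 4 called 0% of all genes. At an unadjusted p under 0.05 there were 0 of 47 members in each, against 0.726% of all genes in edgeR. In 43 members the difference was positive, against 53.4% of all genes, and the median was 0.284, against 0.0086 over all genes. Without both libraries of WT animal 1 the median was -0.2, without CM animal 1 -0.0497, and without CM animal 3 0.549. With the animal as a block it was 0.0298, and in limma-voom 0.0281. The lowest p belonged to Ifit2 with 0.98 ± 0.67 (SE, edgeR adjusted p = 1), followed by Cmpk2 with 1.11 ± 0.79, Ifit3 with 2.92 ± 2.29, Rsad2 with 2.33 ± 1.83 and Mx2 with 2.2 ± 1.92. Ifit2 stood at 22.3, 22.4 and 18.5 CPM in WT IR and 31.5, 20.9 and 20 CPM in WT NIR. Mx2 stood at 11.8, 0.317 and 1.46 CPM in CM IR and 3.67, 0.229 and 3.1 CPM in CM NIR.

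The genotypes were then compared in NIR cells. In CM NIR against WT NIR 0 members passed in edgeR, against 1.62% of all genes, and 1 had an unadjusted p under 0.05, against 15.1% of all genes. DESeq2 called 0 (6.32% of all genes) with 3 at an unadjusted p under 0.05, limma-voom 0 (1.49%) with 2, and the fit with the animal as a block 0 (0.0342%) with 0. Fitted changes were positive for 29 members, against 52.6% of all genes. The median of the members was 0.0936, against 0.0172 over all genes. The effectors had a median of -0.167 and the GTPases one of 0.26. Without both libraries of WT animal 1 the median of the members was 0.894, and without those of CM animal 1 it was -0.237.

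Gbp3, a guanylate-binding protein gene (mm10 chromosome 3, 142560044 to 142573213, plus strand), was the 1 member whose CM NIR libraries all stood above the WT NIR libraries. It stood at 56, 35.9 and 50.2 CPM in CM NIR and at 35.4, 29.7 and 30 CPM in WT NIR. Non-overlap with CM higher was found for 1 of 47 members, against 8.14% of all genes. The log2 fold change was 0.58 ± 0.18 (SE, n = 3 per group), with an unadjusted p of 0.0080 and an adjusted p of 0.145 in edgeR's test. Without CM NIR animal 2 it was 0.744 and passed (edgeR adjusted p = 0.0297), in a fit where 6.29% of all genes passed. Over the other alternatives its adjusted p was between 0.0686 and 0.479. Gbp3 had the smallest spread of the members (SD 0.233), and the first of its 2 listed promoters, shown above, holds overlapping matches close to the start. Gbp genes lie in clusters of close copies, so reads shared between them are uncertain.

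Ifitm3 stood at 516, 390 and 487 CPM in CM NIR and 420, 263 and 236 CPM in WT NIR, a log2 fold change of 0.60 ± 0.28 (edgeR adjusted p = 0.348), and the groups overlapped. Cmpk2 was the 1 member with all CM libraries below the WT libraries, against 7.84% of all genes, with -1.16 ± 0.56 (edgeR adjusted p = 0.375). Igtp, which encodes another vacuole GTPase, stood at 46.8, 43.2 and 51.5 CPM in CM NIR and 54.2, 29.5 and 27 CPM in WT NIR, with overlap, and had 0.35 ± 0.26. Ifitm1, given above, had 0.22 ± 0.18.

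In irradiated cells, CM IR against WT IR, 0 members passed in edgeR, against 0.664% of all genes, and 2 had an unadjusted p under 0.05, against 11.8% of all genes. DESeq2 called 0 (4.47% of all genes) and limma-voom 0 (1.07%), each with 2 at an unadjusted p under 0.05, and the fit with the animal as a block 0 (0.089%) with 0. Fitted changes were positive for 44 members, against 52.9% of all genes. The median of the members was 0.39, against 0.0178 over all genes. In limma-voom, with or without the block, the median was 0.229. In edgeR without CM animal 1 it was -0.299. Gbp3 stood at 55.8, 51.2 and 38.1 CPM in CM IR and 33.6, 36 and 34 CPM in WT IR, again without overlap. With CM higher 9.23% of all genes separated in this way, and with CM lower 8.36% of genes and 0 members. Its log2 fold change was 0.49 ± 0.18 (SE), with an unadjusted p of 0.0201 and an adjusted p of 0.278 in edgeR's test. Ifitm3 stood at 557, 482 and 282 CPM in CM IR and 327, 270 and 225 CPM in WT IR. Its log2 fold change was 0.69 ± 0.28 (edgeR adjusted p = 0.349), and CM animal 3 lay among the WT animals. Igtp stood at 59.9, 49.8 and 36.1 CPM in CM IR and 40.4, 36.1 and 34.8 CPM in WT IR, with 0.39 ± 0.26. Ifit2 was above all 3 WT IR libraries in CM IR animal 1 alone. Ifit3 had 2.75 ± 1.68 and Ifit2 0.75 ± 0.48, and without CM animal 1 they had -0.852 and -0.258.

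Other genes of the pathway were described from 7 lists. The interferons themselves were almost absent: 12 of 21 ligand genes had 0 counts in all 12 libraries, none passed the filter, and the sum over the list was 0.0479 to 0.2 CPM. Ifnb1 had 4 counts in CM IR animal 1, 1 in CM IR animal 3, 3 in WT IR animal 1 and 0 in the other 9 libraries. The receptors Ifnar1, Ifnar2 and Ifngr1 were detected in every library, Ifnar2 between 64.4 and 100 CPM. None of the 14 tested receptor and JAK-STAT genes, 7 other interferon regulatory factors, 15 upstream sensors and adaptors, 8 nucleic acid clearing enzymes, 48 other interferon-inducible genes and 13 other antigen processing genes passed in any of the 5 contrasts in edgeR's test. The medians of the 48 other inducible genes were -0.0135 in CM IR against CM NIR and -0.214 in WT IR against WT NIR. They were 0.314 in CM IR against WT IR, with 39 of the 48 positive, and 0.0918 in CM NIR against WT NIR, with 28 positive. By library the 48 genes stood at 0.73, -0.41 and -0.0412 in CM IR and 0.605, -0.688 and 0.355 in CM NIR, against 0.068, -0.206 and -0.336 in WT IR and 0.618, -0.242 and -0.296 in WT NIR. These are medians of log2 CPM relative to the mean of each gene, and the order of the 3 animals within each group is that of the members. Cxcl10, an interferon-induced chemokine gene named here after its values were seen, stood at 61.5 CPM in CM IR animal 1 and 2.71 CPM in CM NIR animal 1, and between 0.194 and 2.45 CPM in the other 10 libraries. Irf1 stood at 93.4, 61.3 and 72.7 CPM in CM IR and 78.4, 67.6 and 85.1 CPM in CM NIR, against 71.2, 61.3 and 58.2 CPM in WT IR and 75.9, 61.5 and 56.7 CPM in WT NIR.

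Some lists of markers of other blood cells were high in the same libraries as the members, and others were not. The 12 macrophage markers, all detected in at least 1 library, summed to 3080, 733 and 2170 CPM in CM IR and 2750, 524 and 2550 CPM in CM NIR. In WT cells they summed to 2010, 1120 and 1270 CPM in IR and 2730, 668 and 760 CPM in NIR. The libraries high for the interferon response genes were high for this sum, and both libraries of CM animal 2 were low for both. Mrc1 made up 249 to 1700 CPM of it, while Marco and Vsig4 stayed at or under 0.202 CPM and Vsig4 was at 0 in all 6 CM libraries. Within animals the median IR minus NIR difference of the 10 macrophage markers tested was 0.256, 0.712 and -0.482 in CM animals 1, 2 and 3. In WT animals it was -0.424, 0.536 and 0.455, so its sign was that of the members in each animal. The monocyte and dendritic cell list and the mast cell and basophil list had the same signs. The plasmacytoid dendritic cell, neutrophil, B cell, T and NK cell, erythroid and LSK gate lists did not. No macrophage marker passed in any contrast. The part of these markers in the levels of the interferon response genes was not tested.

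**Figure D5:**
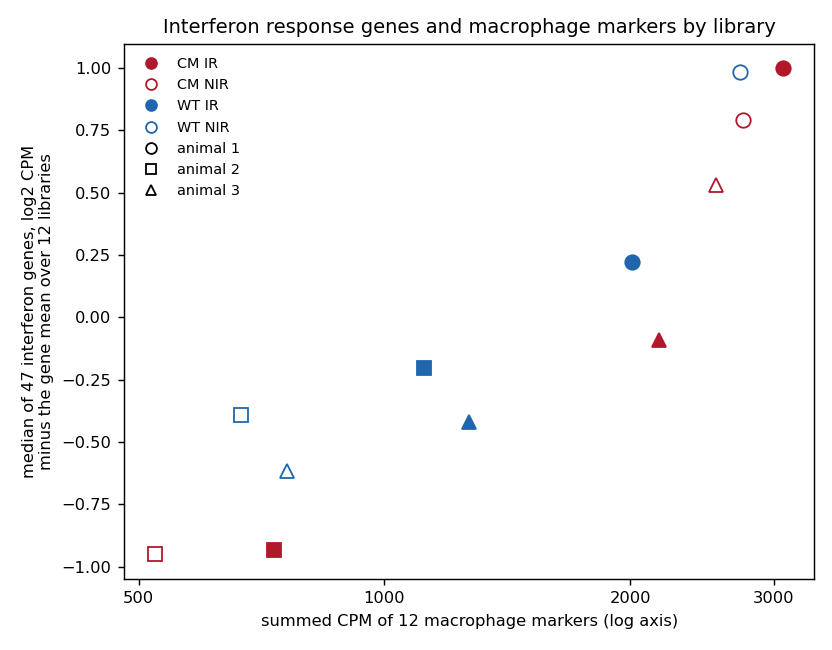
Median over the 47 interferon response genes of log2 CPM minus the mean of each gene (vertical axis) against the summed CPM of 12 macrophage markers (horizontal axis, log scale), 1 point per library. The 2 libraries of an animal are not independent. CM IR animal 1 lies at the upper right, at 3080 CPM and 0.998, and both CM animal 2 libraries at the lower left, at 524 and 733 CPM.

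The 10 monocyte and dendritic cell markers summed to 722 to 3860 CPM in CM IR and 619 to 4560 CPM in CM NIR, against 796 to 1180 CPM in WT IR and 834 to 1290 CPM in WT NIR. F13a1 made up most of the CM sums, at 3090, 575 and 2020 CPM in CM IR and 2890, 510 and 3880 CPM in CM NIR, and 5 of the 9 markers tested had a positive log2 fold change in CM NIR against WT NIR. The 10 mast cell and basophil markers summed to 367 to 1600 CPM in CM IR and 307 to 1830 CPM in CM NIR, against 283 to 496 CPM in WT IR and 253 to 696 CPM in WT NIR. Both lists were lowest among CM libraries in animal 2. Of the 12 erythroid markers Hba-a1, Hbb-bs and Hbb-bt were at 0 throughout. The list summed to 207, 77.7 and 122 CPM in CM IR and 211, 99.2 and 285 CPM in CM NIR, and to 79, 66.8 and 69.9 CPM in WT IR and 276, 80.6 and 117 CPM in WT NIR, lower in the IR library in all 6 animals. The 10 mature neutrophil markers summed to 174 to 744 CPM in CM IR and 143 to 1560 CPM in CM NIR, against 199 to 372 CPM in WT IR and 222 to 448 CPM in WT NIR. Mmp8 carried the CM sums, at 655, 114 and 542 CPM in CM IR and 636, 99 and 1430 CPM in CM NIR, whereas 7 of the 9 markers tested had a negative log2 fold change in CM NIR against WT NIR (median of the 9 -3.8). S100a8, for one, stood at 4.9, 3.09 and 8.8 CPM in CM NIR, against 121, 63.4 and 49 CPM in WT NIR. The 8 plasmacytoid dendritic cell markers, a cell type known for making interferon, summed to 147 to 215 CPM over all libraries, with Siglech at 0.106 CPM in CM IR animal 2 and 14.7 CPM in WT NIR animal 2. The 9 B cell markers summed to 13.9 to 19.4 CPM and the 11 T and NK cell markers to 8.54 to 40.7 CPM, highest in CM IR animal 2, where the members were low. The 9 genes of the LSK gate summed to 955, 1570 and 1190 CPM in CM IR and 898, 1570 and 1080 CPM in CM NIR, against 973, 1320 and 1180 CPM in WT IR and 799, 1210 and 1190 CPM in WT NIR, lowest in animal 1 of every group.

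Single markers passed edgeR's test in the contrasts of CM against WT and in no other. In CM NIR against WT NIR the mast cell genes Tpsb2 and Mcpt4 and the neutrophil receptor gene Cxcr2 were higher, and Cx3cr1, S100a8 and S100a9 were lower (adjusted p = 0.0201 to 0.0436). In CM IR against WT IR Mcpt4 was higher (adjusted p = 0.0375). With the animal as a block none of them passed (adjusted p = 0.0654 to 0.142). Mcpt4 was at or under 0.452 CPM in every library. The part of these cell types in the results above was not tested.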

How the data were processed

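Total RNA of LSK cells was depleted of ribosomal RNA and made into stranded KAPA HyperPrep libraries, per the labels' protocols. The submitters' processing notes name build mm10, TopHat2, HTSeq 0.6.1p1 and bcl2fastq 2.18.0.12. The strand setting, annotation release and read filters were not given in these sources. The deposited counts per gene, whole numbers as the authors counted them, gave every main result. The RPKM values the authors deposited were used for levels between genes and in alternatives. Total gene counts were 68.5 to 111 M per library, so counting error is small except under about 1 CPM. No pair of libraries agreed within counting error (lowest chi-square per degree of freedom 14.8).

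Groups came from the sample titles. The labels give each animal a number, and n counts animals. Genes were kept by filterByExpr (minimum count 10, minimum total 15), which left 14599. All 12 libraries were fitted in 1 model of 4 group means with edgeR 4.0.16 (R 4.3.3), TMM normalization and the quasi-likelihood test, with no animal term. In each of 5 contrasts p was adjusted over the 14599 genes (Benjamini-Hochberg), with a threshold of 0.05. Log2 CPM used a prior count of 2. Alternatives were RLE normalization, no filter, DESeq2 1.42.0, limma-voom (limma 3.58.1), limma on log2(RPKM + 1) and log2(RPKM + 0.1), only the groups compared, a term for the library number series, leaving out each library or a whole animal, and the animal as a replicate block. For CM against WT the block was a random effect in limma-voom (consensus correlation 0.723). IR and NIR libraries with the same animal number were taken as paired: their deviations from the group means correlated at 0.79, 0.844 and 0.125 in CM animals 1, 2 and 3 and at 0.672, 0.504 and 0.412 in WT, although CM NIR animal 3 also correlated at 0.686 with CM IR animal 1. The test was checked for the sign and size of known changes on simulated counts, drawn as independent libraries without an animal effect. The libraries here are paired by animal, so that check does not show its rate of false or missed calls in this design.

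The 47 members and the 16 pathway and marker lists were chosen with earlier results of these data known. Values per library are given for the 5 members with the smallest p in each contrast, in that contrast or where first described, and the member with the highest mean RPKM of each role, and for Irf1, Kit and Ly6a. Members named beyond these are given by their range. Isg15, Oas2, Ifit3 and Mx1 also serve as examples of the spread, chosen after their values were seen. Of these only Oas2 lies outside the rule for values per library. Promoters are from RefSeq (GRCm38.p6); for 29 of the 36 members with a promoter the first 25 transcribed bases matched a reference transcript.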

Additional observations from a re-analysis of the deposited data

How the results depend on the processing

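The count of members called stayed at 0 in all 5 contrasts under every alternative run, with 1 exception. Gbp3 was called (1 member) in CM NIR against WT NIR without the NIR library of CM animal 2, against 6.29% of all genes. With 1 library left out the count of members in that contrast ranged from 0 to 1. With the animal as a replicate block the count of members was 0 in each contrast, and no member's call changed. In edgeR with IR and NIR paired by animal, the count of all genes was 0 for CM IR against CM NIR (1 without the block). It was 163 for WT IR against WT NIR (17) and 0 for the difference of responses (0). For CM against WT the block was a random effect in limma-voom. There the count was 13 for CM IR against WT IR, against 156 in limma-voom without the block and 97 in edgeR. For CM NIR against WT NIR it was 5, against 218 in limma-voom without the block and 237 in edgeR.

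The counts of all genes depended on the tool and on the libraries; the cause was not tested. For CM IR against CM NIR DESeq2 called 18 genes, and 0 were called with only the groups compared and without CM animal 3. For WT IR against WT NIR the count was 140 in DESeq2, 31 in limma-voom, 52 on log2(RPKM + 1), 40 on log2(RPKM + 0.1), 91 with only the groups compared and 1 without WT animal 1. For CM IR against WT IR it was 652 in DESeq2, 156 in limma-voom, 162 on log2(RPKM + 1), 0 with only the groups compared, 14 with the library number series as a term, 4 without CM animal 1, 207 without CM animal 3 and 2 without WT animal 1. For CM NIR against WT NIR it was 922 in DESeq2, 74 with only the groups compared, 32 without CM animal 1, 143 without CM animal 3 and 2 without WT animal 1. For the difference of responses it was 1 on log2(RPKM + 1). With 1 library left out the counts ranged from 0 to 3, 1 to 4, 3 to 271 and 4 to 918 in the first 4 contrasts. With the longer response element letters 11 in place of 18 members held a match.

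The sign of the members' median turned with single animals in every contrast. With 1 library left out it ranged from -0.694 to 0.248 for CM IR against CM NIR, -0.572 to 0.422 for WT IR against WT NIR, -0.277 to 0.672 for CM IR against WT IR, -0.222 to 0.897 for CM NIR against WT NIR and -0.352 to 0.613 for the difference of responses. Normalization, filter and tool kept its sign. Single members turned as well. Without both libraries of CM animal 1, CM IR against CM NIR gave -0.0118 for Ifit2, -0.903 for Ifit3, -0.183 for Cmpk2, -0.702 for Rsad2 and -0.0671 for Mx1, and CM IR against WT IR gave -0.852 for Ifit3 and -0.258 for Ifit2. Without both libraries of WT animal 1, WT IR against WT NIR gave 0.313 for Mx2. With 1 library left out, CM IR against CM NIR ranged from -0.2 to 1.13 for Ifit2, -1.78 to 2.68 for Ifit3, -0.351 to 0.875 for Cmpk2, -1.48 to 1.94 for Rsad2 and -0.626 to 1.8 for Mx1. WT IR against WT NIR ranged from -0.9 to 0.0752 for Cmpk2, -2.04 to 0.491 for Rsad2, -1.77 to 0.536 for Rtp4 and -1.75 to 0.832 for Mx2. CM IR against WT IR ranged from -0.238 to 1.1 for Ifit2 and -0.818 to 3.99 for Ifit3, and the difference of responses from -0.00535 to 1.33 for Ifit2, -0.652 to 4.15 for Ifit3, -0.292 to 3.18 for Rsad2 and -0.179 to 2.73 for Mx2. With 3 animals a group, a p that misses the threshold does not show that levels were alike.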

Other observations

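As a median over genes, antigen presentation beyond the 4 members kept to a narrow range, but single genes differed in spread. In CM NIR B2m had a mean of 1430 CPM with an SD of 541, and Erap1 252 with 7.53. The 13 tested genes of the other antigen processing and MHC class I list stood between -0.2 in WT NIR animal 2 and 0.176 in CM NIR animal 3 (median of log2 CPM minus the mean of each gene), and 0 passed in any of the 5 contrasts in edgeR's test. By the same median the 15 upstream sensors and adaptors, among them the endosomal receptors for nucleic acid, had a wider range. It ran from -0.377 in WT NIR animal 2 to 0.596 in CM IR animal 1. Tlr7 stood at 50.7, 9.45 and 32.9 CPM in CM IR and 45.7, 6.78 and 54.2 CPM in CM NIR, against 14.1, 10.7 and 9.64 CPM in WT IR and 26.4, 11.2 and 8.99 CPM in WT NIR. Tlr9 stood at 17.7, 3.1 and 8.73 CPM in CM IR and 13.9, 3.56 and 10.9 CPM in CM NIR, against 9.79, 7.96 and 7.38 CPM in WT IR and 12.9, 8.88 and 7.12 CPM in WT NIR. CM animal 2 was the lowest of the 6 animals for Tlr9 in both conditions, and Tlr7 was also at its lowest there. Both genes were named after their values were seen.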
